A study of Mus musculus with 18 samples.

Results

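Complement is a cascade of secreted proteases and their targets that tags cells and debris for removal, and 7 of its genes were followed here in mouse marrow-derived mesenchymal stem cells (MSC), the adherent progenitors of marrow fat and bone. They were C1ra and C1s1, which encode the proteases of the C1 complex; C4b and C3, which encode the proteins those proteases and their convertases cleave; Cfb and Cfd, the protease subunit and the activating protease of the alternative pathway; and Serping1, the C1 inhibitor. The genes were taken by symbol from a table of 54347 genes and all 7 were found.

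RNA-seq libraries came from 6 groups of 3. The first experiment had MSC as controls (control), whose labels do not say whether vehicle was given. Others received CK666, which inhibits the Arp2/3 complex that branches actin filaments, or cytochalasin D (CytoD), which blocks actin filament growth. The second experiment used siRNA transfection throughout, with a control sequence (siControl), one against Arp4, an actin-related nuclear protein (siArp4), or the latter together with CK666 (siArp4+CK666). All groups came from a primary line made from the pooled marrow of several male C57BL/6J mice, and the replicates were distinct preparations of these cells, so p-values measure the spread between preparations and not between animals. A group given siControl and CK666 was not analysed here, and no library of the first experiment was transfected, so transfection and experiment cannot be told apart.

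As background, C1q bound to a surface activates C1r, C1r cleaves C1s, and C1s cleaves C4 and C2 to build the enzyme that splits C3. Factor B and factor D make the corresponding enzyme of the alternative pathway, which amplifies C3 cleavage, and the C1 inhibitor binds C1r and C1s and takes them out of the complex. The liver makes most of the circulating proteins, but fibroblasts, macrophages and fat cells make components locally. Factor D is known as adipsin for its abundance in mature fat cells.

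The C1r and C1s genes are neighbours. On mouse genome build GRCm38, C1ra lies at chr6:124512405-124523443 on the plus strand with 11 exons, and C1s1 at chr6:124530345-124542359 on the minus strand with 12 exons in its longest transcript, so that their 3′ ends face each other across 6901 bases. C4b (chr17:34728380-34743882), Cfb (chr17:34856374-34862518) and C3 (chr17:57203970-57228136) lie on the minus strand of the same chromosome, Cfd at chr10:79890853-79892655 on the plus strand and Serping1 at chr2:84765387-84775444 on the minus strand. RefSeq windows of 300 bases around the gene start (250 before, 50 after) were at hand for 4 of the 7 genes, namely C1ra, C1s1, C3 and Cfd. C1s1 had a window for each of its starts, at chr6:124542359 and chr6:124542321.

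The 250 bases before the C1s1 start at 124542359 are shown because C1s1 had the largest called changes of the 7 genes. They are chr6:124542360-124542609 of GRCm38.p6, read on the minus strand, and the capitals mark matches to a C/EBP-like motif (TTGCNNAA) and a TEAD-like motif (GGAATG), both on the strand opposite to the one printed.
C1s1 upstream: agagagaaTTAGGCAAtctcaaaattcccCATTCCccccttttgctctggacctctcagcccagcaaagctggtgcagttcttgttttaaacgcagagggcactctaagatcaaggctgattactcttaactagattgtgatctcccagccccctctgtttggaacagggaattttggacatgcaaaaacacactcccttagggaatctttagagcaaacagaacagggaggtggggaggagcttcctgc
Across all 32851 windows of the table, searched on both strands, 10.8% held the C/EBP-like letters and 14.7% the TEAD-like letters. In the C1ra window the TEAD-like letters stood 74 to 69 bases before the RefSeq start and at bases 30 to 35 and 42 to 47 after it, and the C/EBP-like letters at bases 16 to 23. A GAS-like motif (TTCNNNGAA, in 8.3% of windows) lay at bases 32 to 40 there and overlapped the TEAD-like match at 30 to 35. No window of these 4 genes held the kappaB-like letters GGNNTTTCC (5.8% of windows), the ISRE-like letters GAAANNGAA (8.6%) or a CArG box (1.6%). The letters TATAAA (13.6%) were found in the C3 window, at bases 14 to 19, as were C/EBP-like letters 45 to 38 bases before its start. The Cfd window and that of the C1s1 start at 124542321 held none of the motifs searched. These are matches of letters in a window and were not tied to any measured binding.

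C1ra and C1s1 were expressed in every library and the other 5 genes were at or near the limit of detection in most. By mean count C1ra ranked 4092 and C1s1 8903 of the 54347 genes, Cfb 12703, C3 15116, Cfd 16601, C4b 17720 and Serping1 22126. Per length, in control cells, C1ra stood at 301.9 ± 11.9 normalized counts per kb of exon (SD, n = 3), C1s1 at 61.5 ± 22.7 and Cfb at 5.99 ± 1.35. Normalized counts are the deposited counts divided by the size factor of each library within its experiment. Fewer expressing cells and less RNA per cell cannot be told apart in such bulk samples.

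**Figure D1:**
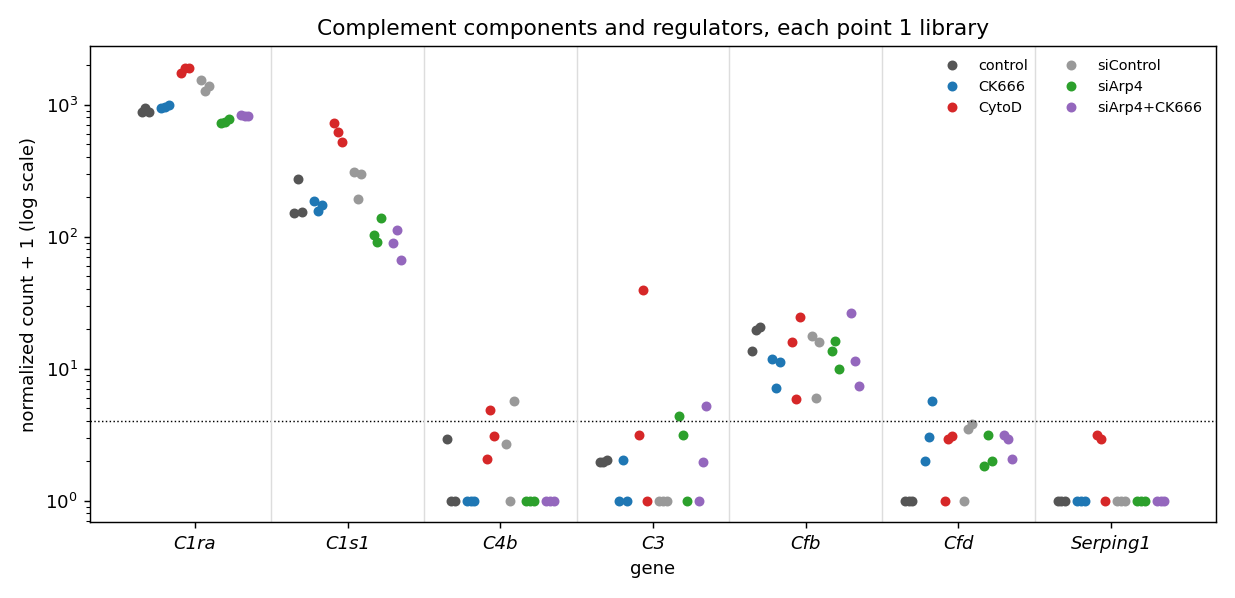
Normalized count plus 1 of the 7 complement genes (vertical axis, log scale) in each of the 18 libraries, coloured by group; each point is 1 library and the dotted line marks a normalized count of 3. C1ra and C1s1 stand far above the others in all groups, and C3 rises clear of the line in CytoD replicate 2 (38.7).

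Libraries held between 18075610 and 24733212 counts, and a count of 0 allows up to 0.166 CPM at the lowest total and 0.121 CPM at the highest, for counting error only. The knockdown was checked by Actl6a, the gene of Arp4, which had 720.1, 1127 and 840.6 normalized counts in siControl, at most 57.2 in any siArp4 library and at most 22.9 in any siArp4+CK666 library. Of 10 marrow stromal markers 7 averaged at least 100 normalized counts, with Thy1 at 0 in all 18 libraries. Of 12 macrophage and blood markers none averaged 100, and Ptprc, the pan-leukocyte marker, was at 0 in 17 libraries and at 1.05 in the last. That last library, siArp4+CK666 replicate 3, stood apart by small macrophage counts. Its normalized counts were 12.7 for Adgre1, 189 for Lyz2 (at most 86.1 elsewhere) and 5.27, 4.22 and 7.38 for C1qa, C1qb and C1qc, which with Adgre1 were at 0 in the other 17. The C1ra and C1s1 changes of the siArp4+CK666 group are therefore also given without it. Endothelial Cdh5 and Emcn were at 0 throughout, and the 4 hepatocyte markers summed to at most 9.48 in any library.

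The C1 proteases rose in cells given CytoD. C1ra, the protease that activates C1s, stood at normalized counts of 880.2, 940.7 and 878.6 in control and at 1737, 1890 and 1909 in CytoD. C1s1, the protease that cleaves C4 and C2, stood at 149.9, 274.6 and 153.2 in control and at 729.1, 615.6 and 522.4 in CytoD. For both genes every CytoD library lay above every control library. C1ra rose by a log2 fold change of 1.04 (SE 0.09, 95% interval 0.86 to 1.22, adjusted p = 2.02e-27 by DESeq2's Wald test) and C1s1 by 1.69 (SE 0.24, 1.21 to 2.17, adjusted p = 6.14e-11). A gene is called here when its absolute log2 fold change exceeds 1 and its adjusted p is below 0.01. Both are therefore called, and of the 13717 genes tested in this comparison 9.12% were called. The C1ra interval reached below the fold change minimum, and tested against a fold change of 2 neither gene passed (adjusted p = 1 for C1ra and 0.218 for C1s1).

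The rise was of similar size when libraries were left out in turn. The C1ra change stayed between 1.01 and 1.08 and that of C1s1 between 1.54 and 2.04, the highest without control replicate 2, whose C1s1 count lay above the other control values. Cell type markers moved alongside. The summed macrophage and blood markers were 265.8 to 322.1 normalized counts in control and 364.9 to 402.9 in CytoD, with Cd68 and Lyz2 called higher and Mrc1 called lower of 5 tested, and with Ptprc, Adgre1 and the C1q genes at 0. The summed adipocyte markers were 4627 to 4858 in control and 6998 to 7530 in CytoD, with 5 of 7 tested called higher. The summed marrow stromal markers were 106700 to 112500 in control and 174000 to 184100 in CytoD. Cxcl12 alone held 33410 to 35900 of these normalized counts in control and 105500 to 109500 in CytoD, so the sum rose through this gene. Of 9 tested stromal markers, Cxcl12 was called higher and Cd44 lower. The part of all these markers in the C1ra and C1s1 results was not tested.

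CK666, in contrast, left both genes uncalled. C1ra stood at 945.1, 965.4 and 996.9 normalized counts with CK666, each above the 3 control libraries by a small margin, and the log2 fold change was 0.11 (SE 0.09, interval -0.08 to 0.29, adjusted p = 0.391). When all 18 libraries were scaled together the groups overlapped. C1s1 stood at 185.7, 154.9 and 173.9, within the range of the control libraries, with a change of -0.17 (SE 0.25, interval -0.66 to 0.32, adjusted p = 0.637). Its sign rested on control replicate 2, without which the change was 0.18 (adjusted p = 0.583). Of the 7 genes 4 had an adjusted p in this comparison and 0 were called. The unadjusted p values of C1ra and C1s1 were 0.254 and 0.502, edgeR called neither, and 11.0% of the 14597 genes tested were called. Adipocyte markers, which summed to 6425 to 7971 with CK666, were called higher for 4 of 7 tested, and stromal markers summed to 46680 to 54080.

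Set directly against CytoD, cells given CK666 had less of both transcripts. C1s1 was lower by a log2 fold change of -1.86 (SE 0.24, interval -2.34 to -1.38, adjusted p = 4.95e-13) and is called, while C1ra, at -0.93 (SE 0.09, interval -1.11 to -0.75, adjusted p = 1.58e-22), passed on p and fell short of the fold change minimum. In both cases the CytoD and CK666 libraries did not overlap. C1ra stayed under the minimum in each fit that left out 1 of the 9 libraries of this experiment. Of 15038 genes tested, 11.8% were called. Markers called lower in CK666 than in CytoD cells were 6 of 9 tested stromal, among them Cxcl12 and Col1a1, 3 of 5 macrophage and blood (Mrc1, Cd14 and Lyz2) and 2 of 7 adipocyte (Lipe and Adipoq). Their part in the result was not tested. The CK666 and CytoD comparisons share their control libraries, and the direct contrast does not use them except for the estimate of spread.

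Knockdown of Arp4 went the other way. C1ra stood at 1532, 1264 and 1379 normalized counts in siControl and at 719.2, 736.4 and 772.5 in siArp4. C1s1 stood at 307.6, 191.1 and 297.9 in siControl and at 101.9, 89.6 and 136.3 in siArp4. No siArp4 library reached the lowest siControl library for either gene. The C1s1 log2 fold change was -1.28 (SE 0.31, interval -1.89 to -0.68, adjusted p = 0.000229), which is called. C1ra was lower by a log2 fold change of -0.91 (SE 0.13, interval -1.17 to -0.65, adjusted p = 1.39e-10), which passed on p and missed the fold change minimum. In this comparison 16.2% of 15415 genes were called.

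The C1s1 call held in the 9 fits that left out a library, with changes of -1.48 to -1.16 and adjusted p of 5.38e-06 to 0.00793. It was lost when edgeR was run with the replicate number as a block (-1.29, adjusted p = 0.0215). Macrophage and blood markers summed to 166.0 to 391.1 in siControl, highest in replicate 2 through Csf1r (181.1, against 18.4 and 38.3), and to 176.9 to 198.4 in siArp4. Without siControl replicate 2, which was also the lowest siControl library for both genes, the changes were -0.98 for C1ra and -1.48 for C1s1. Adipocyte markers summed to 4355 to 5067 in siControl and 2450 to 2668 in siArp4. Of 9 tested stromal markers Col1a1 and Ly6a were called higher and Cxcl12 lower. Their part in the result was not tested.

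Adding CK666 to the knockdown moved neither gene past the test. C1ra stood at 832.2, 813.6 and 823.0 normalized counts in siArp4+CK666, above all siArp4 libraries, and C1s1 at 87.8, 110.6 and 65.3, overlapping them. The changes against siArp4 were 0.15 for C1ra (SE 0.13, interval -0.11 to 0.41, adjusted p = 0.58) and -0.31 for C1s1 (SE 0.32, interval -0.94 to 0.31, adjusted p = 0.643). The count called was 0 of the 3 genes with an adjusted p, both by DESeq2 and by edgeR, with unadjusted p of 0.266 for C1ra and 0.327 for C1s1. Of 14098 genes, 5.75% were called. Without siArp4+CK666 replicate 3 the changes were 0.15 and -0.14.

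Against siControl, the combined treatment again had C1s1 called lower, by -1.60 (SE 0.31, interval -2.21 to -0.98, adjusted p = 2.63e-06), with C1ra at -0.76 (SE 0.13, interval -1.02 to -0.50, adjusted p = 8.72e-08) under the fold change minimum. Of 15415 genes tested, 20.4% were called. Without the library with macrophage counts, C1s1 was at -1.42 (adjusted p = 0.000206) and C1ra at -0.76 (adjusted p = 6.89e-05). Of 9 tested stromal markers Cd44, Eng, Cxcl12 and Ly6a were called lower. Cd36 was called higher of 7 adipocyte markers and Kdr of 1 endothelial marker, and 0 of 4 macrophage and blood markers were called. The part of these markers in the result was not tested. The siArp4 and siArp4+CK666 comparisons share their siControl libraries.

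**Figure D2:**
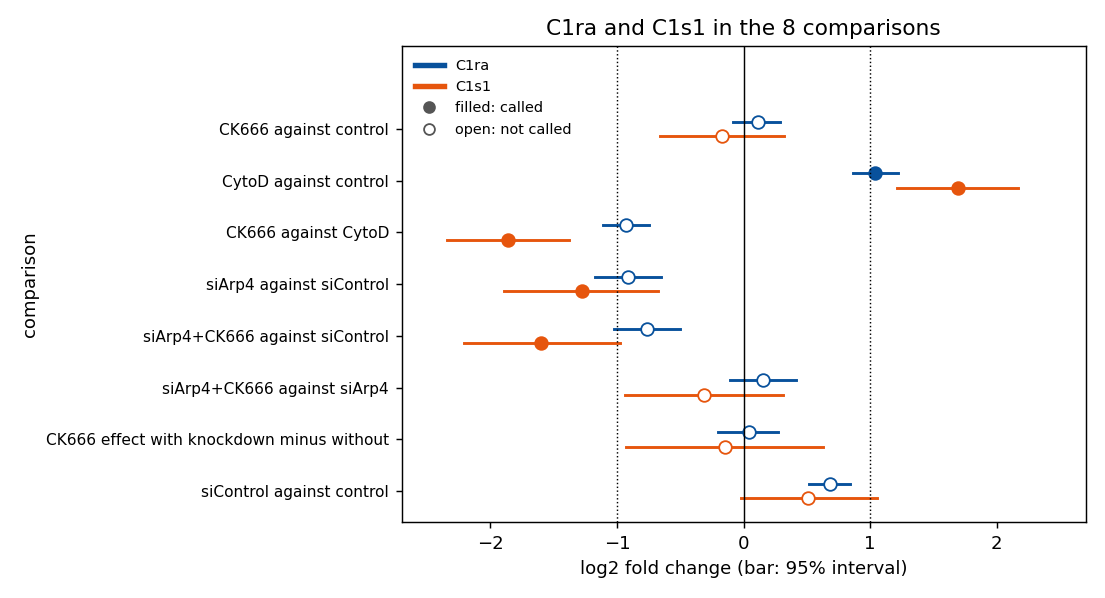
Log2 fold change of C1ra (blue) and C1s1 (orange) in the 8 comparisons (horizontal axis), with bars for the 95% interval, dotted lines at a fold change of 2, and filled points for called changes. Both genes lie to the right for CytoD (1.04 and 1.69) and to the left for siArp4 (-0.91 and -1.28), and the intervals of both genes include 0 for CK666 against control and for siArp4+CK666 against siArp4.

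The effect of CK666 in knockdown cells was compared with that in untransfected cells in a fit of all 18 libraries. The difference was 0.04 for C1ra (SE 0.12, interval -0.20 to 0.27, adjusted p = 0.892) and -0.15 for C1s1 (SE 0.40, interval -0.93 to 0.63, adjusted p = 0.869). With unadjusted p of 0.755 and 0.709, 0 of the 3 tested genes was called by DESeq2, and edgeR called 0 too. The C1s1 interval leaves room for differences of nearly a log2 unit downward. Without siArp4+CK666 replicate 3 the difference was 0.02 for C1ra (adjusted p = 0.935) and 0.01 for C1s1 (adjusted p = 0.989). In this contrast 4.42% of 13511 genes were called.

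In the same fit, siControl cells had more C1ra than control cells. On the scale of all 18 libraries C1ra stood at 1527, 1299 and 1381 normalized counts in siControl and at 853.8, 917.0 and 856.7 in control, without overlap, for a log2 fold change of 0.68 (SE 0.08, interval 0.52 to 0.84, adjusted p = 1.96e-15), short of the fold change minimum. C1s1 was at 306.5, 196.5 and 298.5 against 145.4, 267.7 and 149.3, a change of 0.51 (SE 0.27, adjusted p = 0.103), which became 0.86 (adjusted p = 0.00358) without control replicate 2 and so passed on p. Called were 0 of the 3 tested genes, with unadjusted p of 8.92e-17 for C1ra and 0.061 for C1s1, and 0 by edgeR, against 24.1% of 14491 genes. Of 9 tested stromal markers Vcam1 and Ly6a were called higher and Col1a1 and Cd44 lower. Lipe, Adipoq and Fabp4 were called higher of 7 adipocyte markers, and Mrc1 lower of 5 macrophage and blood markers. The part of these markers in the result was not tested.

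Ordered by mean on that common scale, C1ra ran from CytoD (1802) through siControl (1402), CK666 (934.2), control (875.8) and siArp4+CK666 (833.0) to siArp4 (761.4). Of these neighbours, CK666 and control overlapped. C1s1 ran from CytoD (607.7) through siControl (267.2), control (187.5), CK666 (165.3) and siArp4 (112.0) to siArp4+CK666 (88.9). Here siControl overlapped control, control overlapped CK666, and siArp4 overlapped siArp4+CK666.

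The levels of the C1 proteases were also set against each other. Per exon base, the ratio of C1ra to C1s1 within a library was 6.16, 3.60 and 6.02 in control, 5.34, 6.54 and 6.02 with CK666, and 2.5, 3.22 and 3.84 with CytoD. In the second experiment it was 5.23, 6.94 and 4.86 in siControl, 7.41, 8.62 and 5.95 after knockdown, and 9.95, 7.72 and 13.2 after knockdown with CK666. CytoD libraries lay below those of CK666 and overlapped control through control replicate 2. The siArp4+CK666 libraries lay above those of siControl, the highest being replicate 3. These ratios are a description of levels and were not tested.

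**Figure D3:**
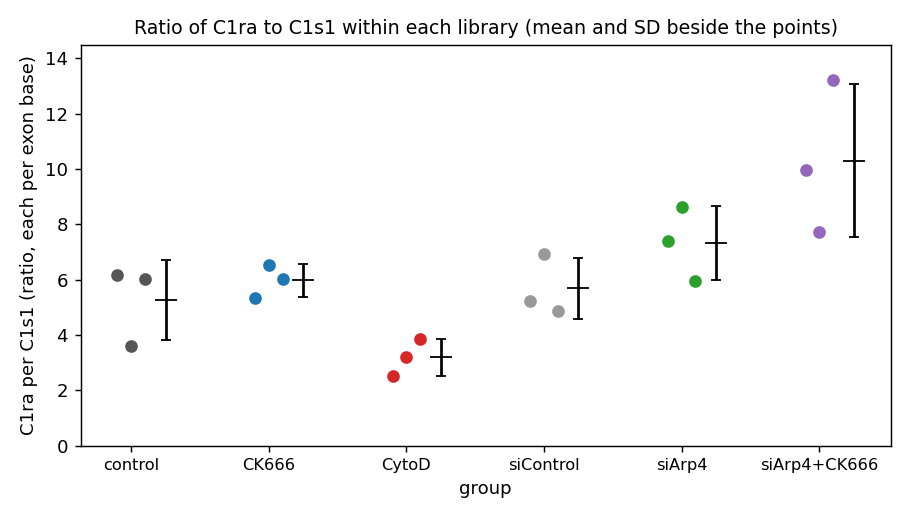
Ratio of C1ra to C1s1, each per exon base (vertical axis, from 0), in each library by group; the bar beside the points is the mean with its SD. The ratio averaged 3.19 with CytoD and 10.3 in siArp4+CK666, with the other groups between 5.26 and 7.33.

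Close copies of these genes took few reads. Of the stretches of 31 bases in C1ra transcripts 59.6% also occur in another gene, mainly C1rb, and of those in C1s1 47.6%, mainly in C1s2. C1rb reached at most 2.23 counts in any library and C1s2 at most 5.05. The noncoding gene Gm16567 overlaps 576 exon bases of C1s1 on the opposite strand, which unstranded libraries cannot separate, and had counts in 1 library only, siArp4+CK666 replicate 3 (6.09). Summing the close paralogues before the fit, or summing C1s1 with Gm16567, changed no call on C1ra or C1s1.

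The targets of C1s were near the limit of detection. C4b, the mouse gene for complement C4, was at 0 in 12 libraries and reached at most 5.43 counts, in siControl replicate 3. It gave an adjusted p in none of the comparisons. It shares 48.3% of its 31-base stretches with C4a, a near-identical copy that was seen at 2.25 to 50.8 counts, so reads of the copies could not be assigned with certainty. C4a was called in no comparison, and its adjusted p ran from 0.366 upward.

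C3, the central component that all pathways cleave, was at 3.97 counts or less in 17 libraries and at 40.1 in CytoD replicate 2. The other CytoD libraries had 2.12 and 0 counts. The control libraries had 0.72, 0.70 and 0.71 and all siControl libraries 0, so CytoD overlapped control, and a single library carried the CytoD mean of 13.6 ± 21.8 normalized counts. C3 was uncalled wherever it was tested, with an adjusted p of 0.611 for CK666 against control and 0.0174 for CK666 against CytoD. None of its 31-base stretches occurred in another gene. Without CytoD replicate 3, the library with 0 counts, C3 was called lower in CK666 than in CytoD cells (-5.87, SE 1.80, adjusted p = 0.00451). Without CytoD replicate 2 it had no adjusted p.

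Cfb, which supplies the protease of the alternative pathway, was found in every library at low level. Its normalized counts were 12.6, 18.5 and 19.7 in control, 10.8, 6.12 and 10.2 with CK666, and 14.9, 4.84 and 23.7 with CytoD. The CK666 libraries lay below the control libraries, but the change of -0.90 (SE 0.67, interval -2.20 to 0.41) gave an adjusted p of 0.297. In the second experiment its values were 16.8, 5.03 and 14.9 in siControl, 12.6, 15.1 and 9.02 after knockdown, and 25.4, 10.49 and 6.32 after knockdown with CK666, which overlapped throughout. Over the 8 comparisons its adjusted p ran from 0.297 to 0.987. The read-through gene Gm20547, which shares 2246 exon bases with Cfb on the same strand, was at 0 in all libraries.

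Cfd, the protease that activates factor B, was at 0 in the 3 control libraries and reached at most 5.39 counts, in CK666 replicate 3. Levels of at most 4.65 normalized counts stood beside fat cell genes that were well detected. Adipoq, the adiponectin gene, averaged 61.6 ± 25.7 normalized counts in control, 231.8 ± 78.0 with CK666 and 593.5 ± 66.5 with CytoD, and was called higher in both (log2 fold change 1.91 and 3.27, adjusted p = 8.56e-09 and 1.52e-24). Lep, like Cfd in control, was at 0, and this in all 18 libraries. Cfd gave no adjusted p in any comparison.

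Serping1, the inhibitor of C1r and C1s, had counts in CytoD replicates 1 and 2 alone (1.58 and 1.59) and was at 0 in the other 16 libraries. At this depth neither its presence in the other groups nor a difference could be shown. In sum over the comparisons, 3 of the 7 genes (C1ra, C1s1 and Cfb) had an adjusted p in each, C3 in 2, and C4b, Cfd and Serping1 in 0.

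The genes whose variance stabilized levels followed C1ra most closely over the 18 libraries, among 10319 genes with a mean of at least 100 normalized counts, were Cxcl12 (Pearson r = 0.95), Smarca2 (0.94) and Nlgn2 (0.91). Cxcl12 encodes the chemokine that retains blood progenitors in marrow, Smarca2 an ATPase of the SWI/SNF remodelling complexes, and Nlgn2 a neuroligin. For C1s1 they were St6galnac2 (0.94), Smarca2 (0.93) and Extl2 (0.92). C1ra and C1s1 correlated with each other at 0.91, which gave C1s1 rank 4 for C1ra and C1ra rank 5 for C1s1. The 18 points share groups, scaling and depth, and the correlations are descriptive. On the common scale Cxcl12 averaged 105100 normalized counts in CytoD, 65770 in siControl, 33600 in control, 19820 with CK666, 18990 in siArp4+CK666 and 12570 in siArp4. It thus kept the order of C1ra apart from the place of control and CK666.

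Other genes of the cascade were taken from a list of 50, of which 9 were at 0 in all 18 libraries, 21 had at most 3 counts in any library and 12 averaged at least 20 normalized counts. The C1q genes, which make the recognition part of C1, were among the absent ones outside the library described above. Of the 7 genes of the terminal attack complex 5 had at most 3 counts in any library. Initiating genes with sizeable levels were C1rl, a C1r-like protease, Masp1, a lectin pathway protease, and Colec12, a membrane collectin.

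With CytoD, C1rl and Colec12 rose, as the C1 proteases did. C1rl averaged 405.2 ± 8.495 normalized counts in control and 1013 ± 52.1 in CytoD (log2 fold change 1.32, adjusted p = 1.38e-30). Colec12 averaged 8785 ± 174 and 19050 ± 242 (1.12, adjusted p = 7.57e-32). The groups did not overlap for either gene. Masp1 went the other way and was not called. On the common scale it stood at 5592, 5760 and 5895 in control and at 3112, 3150 and 3040 in CytoD. The anaphylatoxin receptor C5ar1 fell from 139.7 ± 4.73 to 48.2 ± 12.7 (log2 fold change -1.54, adjusted p = 0.000129). Of 50 listed genes 16 were tested and 4 called, where 9.12% of all genes were called, and their median change was 0.03, beside 0.01 over all genes. Tested against a fold change of 2, 0 were called. Against CytoD, CK666 cells had less C1rl (-1.69) and C5ar2 (-1.92) and more C1qbp (1.39), a mitochondrial and surface protein that binds C1q. In all, 4 of 20 tested were called, against 11.8% of all genes, with a median of -0.52 beside -0.03 over all genes.

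With CK666, both C5a receptors fell, C5ar1 from 139.7 ± 4.73 normalized counts in control to 28.0 ± 16.5 (log2 fold change -2.32, adjusted p = 6.88e-09) and C5ar2 from 100.2 ± 9.499 to 35.5 ± 7.97 (-1.50, adjusted p = 6.23e-08). In all, 4 were called lower and 1 higher of 19 tested (11.0% over all genes), with a median of -0.08 beside 0.01 over all genes. Tested against a fold change of 2, 0 were called. With the replicate number as a block, 3 were called, C5ar1, C5ar2 and Cd93, while C3ar1 and C8g were lost. Cd93, C3ar1 and C8g averaged below 20 normalized counts and are named here after their values were seen. edgeR with that block called 2. Leaving out CK666 replicate 1 or any of the control replicates 1, 2 and 3 also left 3 calls.

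Arp4 knockdown gave another set. Itgb2, the beta chain of complement receptors 3 and 4, rose from 86.5 ± 19.5 normalized counts in siControl to 900.4 ± 80.1 with siArp4 alone and 828.2 ± 76.9 when CK666 was added (log2 fold change 3.37 and 3.25, adjusted p = 1.27e-55 and 6.91e-52). Its partner chain in receptor 3, Itgam, a macrophage marker, was at 0 in the siControl and siArp4 libraries and at most 1.05 in siArp4+CK666. Itgax, the partner chain in receptor 4, was at 0 in 5 of the 18 libraries and reached at most 7.89 counts. C5ar1 rose by 1.95 (adjusted p = 1.01e-10), from 33.2 ± 3.98 to 127.9 ± 12.6, and stood at 51.6 ± 9.58 with CK666 added (-1.31 against siArp4, adjusted p = 2.63e-05). C5ar2 stood at 58.4 ± 13.4 in siControl, 117.0 ± 13.9 in siArp4 and 40.7 ± 7.68 with CK666 added, a log2 fold change of -1.52 from siArp4 (adjusted p = 9.17e-06).

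Cd59a, a membrane protein which blocks the attack complex, fell from 385.6 ± 108.3 in siControl to 166.4 ± 28.5 after knockdown and 76.7 ± 21.6 with CK666 as well, with changes of -1.21 (adjusted p = 0.000354) and -2.33 (adjusted p = 7.72e-13). Cr1l, which speeds the decay and cleavage of the C3 convertase, averaged 1239 ± 20.6, 675.9 ± 66.9 and 455.4 ± 50.3, and was called for the combined treatment (-1.44, adjusted p = 1.39e-19) and not for siArp4 alone (-0.88). Cfp, which encodes properdin, the stabilizer of the alternative convertase, averaged 109.7 ± 42.9, 50.4 ± 10.7 and 43.3 ± 3.63 (-1.11, adjusted p = 0.00809, and -1.33, adjusted p = 0.0011).

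Several of these calls were fragile. The Cfp call for siArp4 was lost with edgeR (adjusted p = 0.0246), and in 8 of the 9 fits that left out a library, with -0.78 (adjusted p = 0.0664) without siControl replicate 2. For the combined treatment it was lost without siControl replicate 2 (-0.99) or siArp4+CK666 replicate 2 (-1.26, adjusted p = 0.0154). The Cd59a call for siArp4 was lost without siControl replicate 2 (-0.97) or siArp4 replicate 2 (adjusted p = 0.0103). Its call for siArp4+CK666 against siArp4 (-1.12, adjusted p = 0.00391) was lost with edgeR (adjusted p = 0.0363) and with the replicate block in DESeq2 (adjusted p = 0.0103). That call was kept in 4 of the 9 fits that left out a library. Of the listed genes 5 of 21 were called for siArp4, where 16.2% of all genes were, with a median of 0.21 beside -0.05 over all genes. That count was 3 with edgeR, 2 with edgeR and a replicate block, 1 when tested against a fold change of 2, 8 without siControl replicate 1, 3 without siControl replicate 2 or siArp4 replicate 3, and 2 without siArp4 replicate 2. For siArp4+CK666 it was 5 of 21 (20.4% over all genes, median 0.13 beside -0.05), 3 with edgeR and a replicate block, 2 against a fold change of 2, and 3 without siArp4+CK666 replicate 2.

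Against siArp4 it was 4 of 19, all lower (5.75% over all genes, median -0.22 beside 0.02), 2 with edgeR, 0 with edgeR and a replicate block or against a fold change of 2, and 2 without siControl replicate 3, siArp4 replicate 1, siArp4 replicate 3, siArp4+CK666 replicate 1 or siArp4+CK666 replicate 2. For the difference between the CK666 effects it was 1 of 17, Cr1l (4.42% over all genes, median -0.24 beside -0.03), 0 against a fold change of 2, and 2 without CK666 replicate 2. Between siControl and control it was 3 of 19, all lower (24.1% over all genes, median 0.25 beside 0.04), 1 when tested against a fold change of 2, among them Masp1 (-1.84, adjusted p = 1.82e-24) and C5ar1 (-2.03, adjusted p = 5.73e-10).

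**Figure D4:**
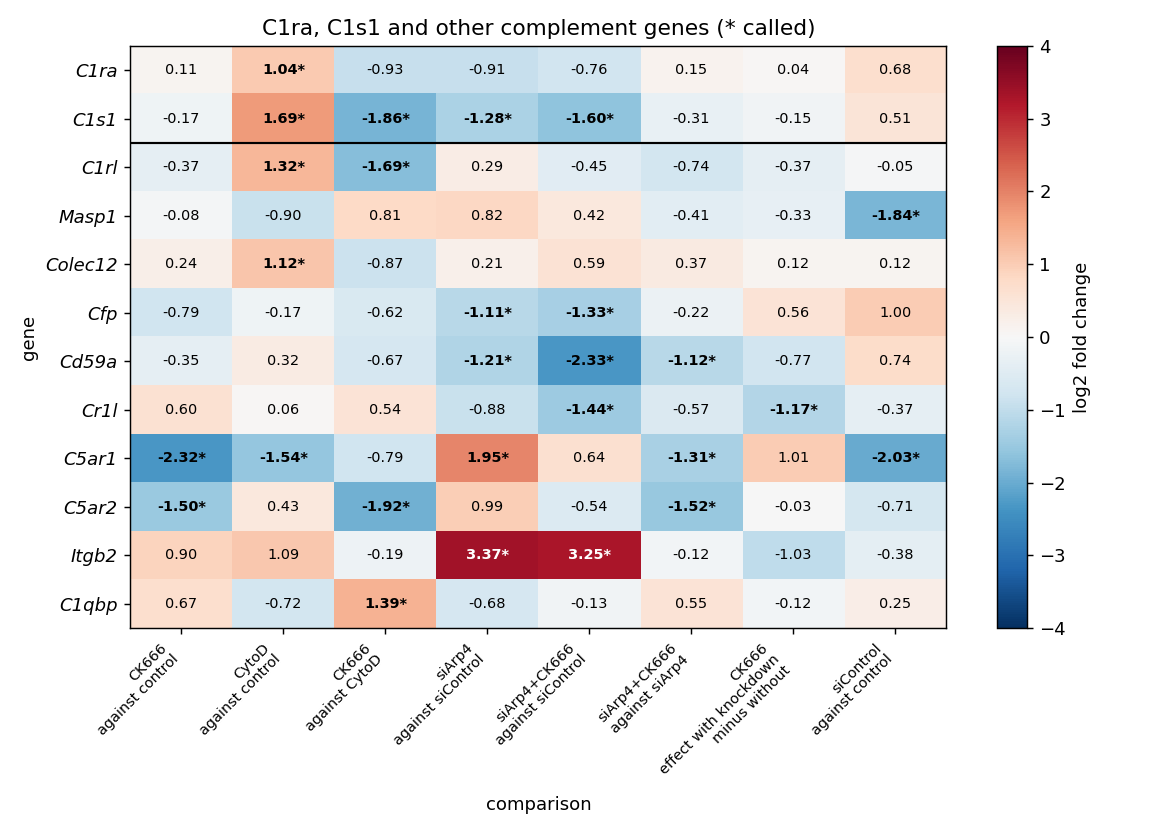
Log2 fold changes of C1ra, C1s1 and 10 other complement genes (rows) in the 8 comparisons (columns), coloured from blue (lower) to red (higher), with an asterisk where the gene was called. The CytoD column holds the rises of C1ra, C1s1, C1rl and Colec12, and the siArp4 columns hold the rises of Itgb2 and the falls of C1s1 and Cfp.

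Transcripts that commonly accompany complement induction were read beside it. The share of all genes called was 9.12% for CytoD, 11.0% for CK666, 16.2% for siArp4 and 24.1% for siControl against control. Of 12 interferon response genes, 4 were called higher with CytoD and 0 lower, among them Gbp2 (log2 fold change 2.69), Psmb8 (2.16) and Ifit3 (1.10, which became 0.93 without CytoD replicate 1 and lost its call). With CK666 0 of 12 were called in either direction. For siArp4 1 was called higher and 2 lower, with Psmb8 at -4.08. Between siControl and control 8 of 12 were called higher and 0 lower, with Oasl2 at 5.0, Irf1 at 2.26, Gbp2 at 4.03 and Psmb8 at 5.92.

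Of 14 acute phase and NF-kB genes, 3 were called higher and 1 lower with CytoD. Hp, the haptoglobin gene, rose by 1.83, Il1rn by 1.18 and Cxcl1 by 2.08, while Ccl2 changed by -1.55. With CK666, Il1rn (-3.57), Ccl2 (-3.93) and Tnfaip3 (-2.21) were called lower, and Cebpb (1.59) and Relb (1.02) higher. The Relb call was lost without CK666 replicate 1 (0.89) or control replicate 2. With siArp4, Il1rn (1.25) and Cxcl1 (1.07) were called higher and Ccl2 (-1.37) and Hp (-1.21) lower. The Cxcl1 call was lost without siControl replicate 1 (0.95) or siArp4 replicate 1 (0.98). The Hp call was lost with edgeR (adjusted p = 0.0232) and in 5 fits that left out a siControl or siArp4 library, with a change of -0.78 without siControl replicate 2. Nfkb2 was called lower in siArp4+CK666 (-1.23), Nfkbia lower in CK666 than in CytoD cells (-1.04, lost without CK666 replicate 2 or CytoD replicate 2, at -0.93 each), and Cebpd higher in siControl than in control (1.64, lost with a replicate block at 1.08, adjusted p = 0.0293).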

How the data were processed

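The authors deposited estimated counts per gene for the 18 libraries, made with Salmon 1.2.1 at default settings from paired-end, unstranded reads and the GENCODE vM25 annotation of GRCm38. The summing of transcripts into genes is not given in the sources used here. Gene symbols and coordinates came from GENCODE vM21 on the same build (54094 of 54347 identifiers matched, 253 did not), and promoter windows from RefSeq (GRCm38.p6). Rounded counts went into DESeq2 1.42.0 (R 4.3.3; Wald test, no shrinkage), as in the methods of the study, with the 9 libraries of an experiment together. The difference between CK666 effects, and siControl against control, used all 18 libraries. Benjamini-Hochberg adjustment ran over all genes tested. Genes are missing an adjusted p where independent filtering removed them for low counts. Alternatives were edgeR 4.0.16, other scaling, a low-count filter, other thresholds, a replicate block, summed paralogues and leaving out each library. The code was tested on simulated counts. The members and lists were chosen with earlier results of these data known. Other complement genes are named with values where they were called at least once and averaged at least 20 normalized counts (inducers, 100), and similar genes are the 3 highest correlations. Some genes that meet these conditions are not reported here, though counts over lists include them.

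Replicate numbers were taken to pair samples where the deviations of same-numbered libraries correlate above 0.1 in all 3 pairs. This held for CK666 with control (0.145, 0.106 and 0.126) and for no other pair of groups. No label says that a number marks a shared day or batch, and libraries of different numbers were not compared.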

Additional observations from a re-analysis of the deposited data

Results flagged for a closer look

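In the fit of all 18 libraries, the CK666 effect on Cr1l, the membrane regulator of the C3 convertase, differed between knockdown and untransfected cells by the test of the difference itself. The difference was -1.17 on the log2 scale (SE 0.16, adjusted p = 6.18e-12 by DESeq2's Wald test). Tested against a fold change of 2 it was not called (adjusted p = 1). Its normalized counts on the common scale averaged 1619 in control and 2431 with CK666, and 692.9 in siArp4 and 461.5 in siArp4+CK666. CK666 did not overlap control, and siArp4+CK666 did not overlap siArp4. Knockdown, transfection and experiment cannot be told apart in this contrast.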

How the results depend on the processing

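Numbers of the 7 genes called are given for the settings that changed them. Tested against a fold change of 2, 0 were called for CytoD against control (2 in the fit as reported), CK666 against CytoD (1), siArp4 against siControl (1) and siArp4+CK666 against siControl (1). With no fold change minimum, 2 were called for the last 3 of these, and 1 for siControl against control (0). With library after library left out, the count for CK666 against CytoD ran from 1 to 2, and was 2 without CytoD replicate 3, where C3 was called as well (-5.87, adjusted p = 0.00451). The counts of the other comparisons did not change in this way. With edgeR and a replicate block, the count for siArp4 against siControl fell from 1 to 0, with C1s1 at -1.29 (adjusted p = 0.0215). The replicate block in DESeq2 changed no call on the 7 genes, and the cause of the loss was not tested. A pair of values without a call changed sign as libraries were left out. C1s1 ran from -0.32 to 0.18 for CK666 against control (0.18 without control replicate 2), and from -0.50 to 0.04 for the difference between the CK666 effects (0.01 without control replicate 1 or siArp4+CK666 replicate 3, 0.04 without siArp4 replicate 3). TMM scaling, a low-count filter, edgeR without a block and summed paralogues left the counts unchanged. Over the genes named with values, 787 of the values from other settings kept direction and side of the threshold, 73 lost the call and 4 gained it, and leaving out libraries gave 900 kept, 32 lost and 4 reversed. Depth limits what can be said of C4b, C3, Cfd and Serping1, which were at 3 counts or fewer in at least 15 of 18 libraries.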
